A study of Mus musculus with 12 samples.

Results

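Lungs of mice that had received bleomycin and Huashibaidu granules (HBG) were compared with lungs of Control animals, which had neither, to describe which transcripts still differed from control tissue. The comparison used 8 of the 12 libraries of the series, the 4 titled HSBD and the 4 titled Control, chosen by the group given in their titles. All animals were male C57BL/6 mice, 6 to 8 weeks old, and no allele, transgene or genetic change is named for any group. HBG animals had a single instillation of bleomycin into the trachea at 5 mg/kg and granules by stomach tube at 7 g/kg, the dose the labels give for the level called G. Control animals were given distilled water in place of the granules, and the sources used here do not say what, if anything, was instilled into their tracheas. The remaining 4 libraries, called Model, came from animals given bleomycin and water, and their values are set beside the others. The labels conflict on when the granules were given: 1 text starts them in the week before bleomycin and ends them at day 28, another starts them on day 7 for 14 days. They also do not state that each library is a separate animal, so the p-values below measure the spread between libraries, part of which may be technical.

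Bleomycin breaks DNA, and its instillation injures the alveolar epithelium, the thin lining across which gas is exchanged. Inflammatory cells enter, monocytes mature into macrophages in the airspaces, and fibroblasts become contractile myofibroblasts that deposit collagen, fibronectin and other matrix. In mice this fibrosis is strongest some weeks after a single dose and can resolve in part. Huashibaidu granules are a Chinese herbal preparation of many plants, which was prescribed for respiratory infection.

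Lung identity was clear in all 8 libraries. The surfactant gene Sftpc of type II alveolar cells lay between 7736 and 18928 CPM (read counts scaled to a common library size with TMM factors), the type I cell receptor gene Ager between 1514 and 2361 CPM, and the club cell gene Scgb1a1 between 17564 and 61114 CPM. Totals were 18864801 to 27150846 estimated counts in Control and 17979899 to 20752048 in HBG, so a count of 0 allows at most 3 counts, or 0.110 to 0.167 CPM, counting error only. HBG 3 stood apart on the first principal component of the 8 libraries, at 73.4, with Control 2 at the other end, at -44.2. That component held 44.3% of the variance of the 2000 most variable genes. HBG 1 stood apart on the next, which held 22.3%. The correlation of log2 CPM between HBG libraries was as low as 0.925 (HBG 1 with HBG 3), against 0.968 or more between Control libraries. Where a pair of values is given without group names, Control comes first and HBG second.

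Few genes passed the main test of HBG against Control, which with 4 libraries per group can miss real differences. Of 17827 genes tested, 27 (0.151%) passed edgeR's quasi-likelihood test at a Benjamini-Hochberg adjusted p under 0.05, 4 higher (0.0224%) and 23 lower (0.129%) in HBG. Among the 23 were the transcription factor genes Jund and Cebpb, the contractility regulator Ppp1r14a and the ribosomal protein gene Rpl13. All 4 higher genes were ones whose reads can be confused with a copy or an overlapping gene. No member of the collagen, macrophage or cytokine lists described below passed. At an unadjusted p under 0.05 stood 1470 genes (8.25%), 640 higher (3.59%) and 830 lower (4.66%). The libraries of the groups did not overlap for 1128 genes (6.33%), 430 with HBG above (2.41%) and 698 with HBG below (3.92%). Genes named beside the 27 as copies, overlapping neighbours or family members were chosen after their values were seen. For all 27 genes the 4 HBG libraries lay entirely above or entirely below the 4 Control libraries. Over all genes tested, 51.0% had a higher mean in HBG and the median log2 fold change was 0.00604.

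**Figure D1:**
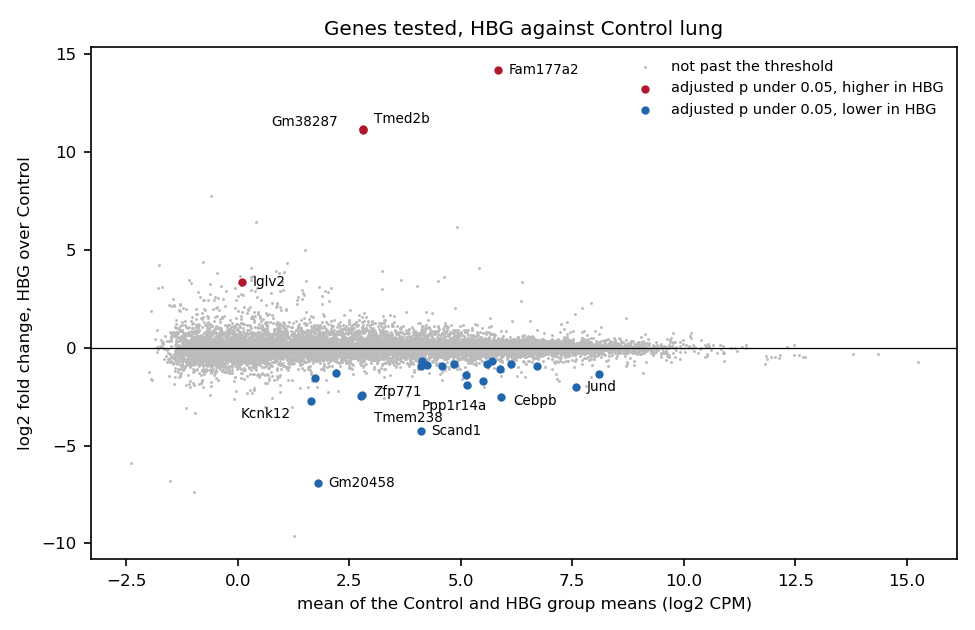
Each point is 1 of the 17827 genes tested, with the mean level on the horizontal axis (log2 CPM) and the log2 fold change of HBG over Control on the vertical axis; coloured points had an adjusted p under 0.05. The 23 lower genes in blue span log2 fold changes of -6.91 to -0.68, and the heights of Fam177a2, Tmed2b and Gm38287, at 0 counts in Control, depend on the prior count and are no measure of size.

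The number of calls depended on the libraries and the tool. It ranged from 16 (without Control 3) to 25 (without HBG 3) when 1 library was left out, and 15 of the 27 genes passed in all 8 such fits. DESeq2 called 205 genes and limma-voom with sample quality weights 101, both including all 27. In Model, set beside Control in the same fit, 62 genes passed (0.348%), 9 higher (0.0505%) and 53 lower (0.297%). Both comparisons use the same Control libraries. Model values are therefore only set beside those of the 27 genes and of some others below, and no overlap is drawn from them. Between HBG and Model no gene passed (edgeR, 0 of 17827, with 433 at an unadjusted p under 0.05, 2.43%).

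Jund encodes a subunit of AP-1, the dimeric factor of the Jun and Fos families that acts on growth and stress genes. Jund (ENSMUSG00000071076) measured 339, 395, 273 and 221 CPM in Control libraries 1 to 4 and 100.004, 68.0, 52.97 and 86.7 CPM in HBG libraries 1 to 4. The highest HBG library, HBG 1, was below the lowest Control library, Control 4, by more than the range of the HBG libraries. Jund fell by a log2 change of -1.997 ± 0.22 (SE, edgeR adjusted p = 0.00249), with a mean of 307 ± 76.2 CPM in Control and 76.9 ± 20.7 in HBG (SD, n = 4 per group), and Model stood at 73.9 ± 11.1 CPM.

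Cebpb encodes a leucine-zipper factor of macrophages, epithelium and the acute-phase response. Cebpb (ENSMUSG00000056501) was at 89.6, 137, 113 and 64.7 CPM in Control and 22.02, 18.9, 11.01 and 18.4 CPM in HBG, with the lowest Control library, Control 4, well above the highest HBG library, HBG 1. Its log2 fold change was -2.52 ± 0.28 (SE, edgeR adjusted p = 0.00248), a mean 82.6% lower, and Model stood at 19.3 ± 5.23 CPM. Relatives of the same families, chosen after their values were seen, did not pass in edgeR. Cebpa had 102 ± 14.5 CPM in Control and 73.6 ± 14.9 in HBG (edgeR adjusted p = 0.479), and Cebpd 212 ± 118 and 71.3 ± 17.7 (edgeR adjusted p = 0.21, DESeq2 adjusted p = 0.00503). Cebpg had 90.1 ± 6.56 and 95.1 ± 12.7 CPM (edgeR adjusted p = 0.861). Among AP-1 subunits, Jun had 381 ± 164 and 245 ± 42.5 CPM and Junb 201 ± 178 and 80.6 ± 50.4, and Fos was at 63.0, 1099, 199 and 81.5 CPM in Control and 333, 71.9, 27.4 and 74.5 CPM in HBG.

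No set rule picked the 3 strongly lowered genes whose promoters are shown. These promoters are given because most of the lowered genes were GC-rich, as described further on. They are the 250 bases before the transcription start in RefSeq (GRCm38.p6), 5′ to 3′ on the gene's strand. Capitals mark the GC box, GGGCGG on either strand, a short motif bound by Sp-family factors.
Scand1, chr2:156312705-156312954, minus strand: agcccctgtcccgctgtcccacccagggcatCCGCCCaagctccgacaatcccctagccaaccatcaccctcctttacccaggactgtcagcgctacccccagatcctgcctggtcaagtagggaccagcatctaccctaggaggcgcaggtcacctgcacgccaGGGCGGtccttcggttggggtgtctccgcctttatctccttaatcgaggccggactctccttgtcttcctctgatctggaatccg
Cebpb, chr2:167688665-167688914, plus strand: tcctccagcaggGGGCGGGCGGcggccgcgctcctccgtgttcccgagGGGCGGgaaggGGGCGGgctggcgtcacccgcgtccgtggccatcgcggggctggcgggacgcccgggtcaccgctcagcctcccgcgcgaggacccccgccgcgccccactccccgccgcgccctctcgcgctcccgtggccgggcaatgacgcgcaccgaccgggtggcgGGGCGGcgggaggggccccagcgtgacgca
Ppp1r14a, chr7:29289070-29289319, plus strand: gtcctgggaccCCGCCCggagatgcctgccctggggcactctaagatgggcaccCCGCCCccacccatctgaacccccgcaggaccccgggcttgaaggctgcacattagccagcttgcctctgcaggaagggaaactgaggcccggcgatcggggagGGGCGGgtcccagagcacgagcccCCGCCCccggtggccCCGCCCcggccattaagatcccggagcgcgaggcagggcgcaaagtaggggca
These windows hold 2, 5 and 5 GC boxes and have 61.6%, 81.6% and 71.2% GC. Of the 23 lower genes, 20 matched a RefSeq promoter, and 16 of those (80.0%) had a GC box. The share was 59.2% of the 12599 promoters matched to tested genes and 35.4% of all 27025 promoters of that table. The CCAAT box (CCAAT, either strand) occurred in 35.0% of the 20, against 39.5% of tested genes. The cyclic AMP response element TGACGTCA was found in 1 of the 20 promoters, and neither the AP-1 site TGANTCA nor the C/EBP palindrome TTGCGCAA in any. Of the promoters of tested genes 2.75%, 6.07% and 0.278% held them, in that order. A match describes letters in this window only.

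Scand1 encodes a SCAN-domain protein, a partner of zinc finger transcription factors. Scand1 (ENSMUSG00000046229) had 40.8, 27.5, 33.7 and 28.4 CPM in Control and 2.05, 1.41, 1.89 and 1.55 CPM in HBG, with a gap between the groups wider than the range within either. Its mean was 94.7% lower, a log2 change of -4.23 ± 0.20 (SE, edgeR adjusted p = 8.09e-07), and Model stood at 1.34 ± 0.254 CPM. Scand1 overlaps Cnbd2 on the opposite strand over 203 bases of transcript. Cnbd2, chosen after its values were seen, had 7.65 ± 0.783 CPM in Control and 5.51 ± 0.262 in HBG.

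The zinc finger gene Zfp771 and the membrane protein gene Tmem238 fell to a similar degree from low levels. Zfp771 (ENSMUSG00000054716) had 13.0, 10.6, 11.9 and 10.4 CPM in Control and 2.10, 1.41, 1.94 and 2.72 in HBG, a log2 change of -2.49 ± 0.22 (SE, edgeR adjusted p = 0.00035). Tmem238 (ENSMUSG00000030431) had 13.4, 10.4, 11.3 and 11.1 CPM in Control and 2.57, 1.89, 1.51 and 2.72 in HBG, a log2 change of -2.41 ± 0.25 (SE, edgeR adjusted p = 0.00143). In both genes all HBG values lay under 3 CPM and all Control values above 10 CPM. Model stood at 1.69 ± 0.359 CPM for Zfp771 and 2.15 ± 0.612 for Tmem238. Kcnk12, a potassium channel gene of the tandem-pore family, had 5.17, 6.61, 4.90 and 5.08 CPM in Control and 0.933, 0.973, 0.189 and 1.22 in HBG, where HBG 3 rested on 4 counts. It fell by a log2 change of -2.71 ± 0.45 (SE, edgeR adjusted p = 0.0486), and Model stood at 1.02 ± 0.480 CPM. That call was lost without each library but HBG 3 (edgeR adjusted p up to 0.14).

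Ppp1r14a encodes CPI-17, which inhibits myosin phosphatase in smooth muscle and so favours contraction. Ppp1r14a (ENSMUSG00000037166) was even within each group, at 57.3, 52.9, 60.5 and 53.6 CPM in Control and 12.6, 16.9, 14.7 and 15.4 CPM in HBG. The gap between the lowest Control and the highest HBG library was several times the spread of either group. Its log2 fold change was -1.91 ± 0.13 (SE, edgeR adjusted p = 3.08e-05), and Model stood at 14.6 ± 2.44 CPM. All 13 tested genes of the smooth muscle list, which holds the contractile apparatus itself, had lower means. Their median log2 fold change was -0.22, and -0.50 (without HBG 1) to -0.025 (without HBG 3) with 1 library left out. Without HBG 3, 4 of the 13 had higher means. With all libraries none passed and none was at an unadjusted p under 0.05 in edgeR, and none passed in DESeq2 or limma-voom.

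Rpl13, a protein of the large ribosomal subunit, measured 422, 361, 379 and 403 CPM in Control and 139, 136, 167 and 186 CPM in HBG, without overlap. Rpl13 (ENSMUSG00000000740) fell by a log2 change of -1.32 ± 0.16 (SE, edgeR adjusted p = 0.00409). In Model it stood at 96.9 ± 21.3 CPM, and of the 27 genes it had the smallest unadjusted p between HBG and Model, 0.000924, which did not hold after adjustment (edgeR adjusted p = 1.0). Of the 34 ribosomal protein genes tested, Rpl13 included, 16 had a higher and 18 a lower mean, with a median log2 fold change of -0.01. With GC content and length corrected, that median was 0.11. Rps2 passed beside Rpl13 in DESeq2 and limma-voom. Ribosomal protein genes have many processed copies in the genome, so their counts are uncertain.

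Hnrnpa0 encodes a protein that binds AU-rich RNA. The members named in this and the next paragraph were chosen after their values were seen, apart from Ccdc85b, Fam171a2 and Zbtb11os1. Hnrnpa0 (ENSMUSG00000007836) had 141, 126, 135 and 143 CPM in Control and 66.7, 72.8, 73.2 and 74.7 CPM in HBG, a log2 change of -0.92 ± 0.10 (SE, edgeR adjusted p = 0.00143). The ranges within the groups were narrow beside the gap between them, and Model stood at 65.1 ± 8.57 CPM. Snrpf, an Sm protein of spliceosomal particles, fell from 22.6 ± 2.36 to 12.0 ± 1.05 CPM. Taf10, a subunit of the TFIID and SAGA transcription complexes, fell from 61.5 ± 4.61 to 35.0 ± 1.36 CPM. Its opposite-strand neighbour Ilk, whose exons overlap it, had 135 ± 2.73 and 145 ± 10.04 CPM. Sap30l of the Sin3 histone deacetylase complex fell from 21.6 ± 1.55 to 13.5 ± 0.868 CPM and the nucleolar protein gene Nol7 from 63.4 ± 3.53 to 39.7 ± 2.99. Mrps34, of the small subunit of the mitochondrial ribosome, fell from 24.8 ± 1.69 to 13.3 ± 1.60 CPM. Trir, a nuclease that acts on the RNA of telomerase, fell from 80.1 ± 4.41 to 37.3 ± 6.04 CPM. These 7 genes had log2 fold changes between -1.10 and -0.68 (edgeR adjusted p between 0.00143 and 0.0168). Model stood at 11.2 ± 1.68 CPM for Snrpf, 39.2 ± 4.54 for Taf10, 12.2 ± 0.854 for Sap30l and 37.7 ± 1.64 for Nol7. It was at 13.0 ± 1.68 CPM for Mrps34 and 37.1 ± 8.11 for Trir. Calls held in every left-out fit for Hnrnpa0, Taf10 and Nol7, and were lost in at least 1 for Snrpf, Sap30l, Mrps34 and Trir (edgeR adjusted p up to 0.0744, 0.0941, 0.0602 and 0.079).

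The rest of the lowered genes have varied roles. Ccdc85b, a coiled-coil protein gene, had 52.8, 37.8, 51.9 and 58.6 CPM in Control and 13.5, 18.4, 23.2 and 21.2 CPM in HBG (log2 fold change -1.40 ± 0.17, SE, edgeR adjusted p = 0.00419), and passed in all 8 left-out fits. Scarf2, a scavenger receptor family gene, fell from 90.03 ± 13.3 to 50.5 ± 7.13 CPM, Eva1b, a membrane protein gene, from 37.1 ± 5.87 to 20.6 ± 2.63, and Tamalin, a scaffold of receptor trafficking, from 31.6 ± 5.24 to 16.4 ± 2.29. Fam171a2 fell from 6.55 ± 1.13 to 2.63 ± 0.446 CPM and Zbtb11os1, a transcript antisense to Zbtb11, from 4.91 ± 0.748 to 1.68 ± 0.346, while Zbtb11 itself had 27.1 ± 2.26 and 29.5 ± 3.81 CPM. All of these except Ccdc85b were lost in 5 or more of the 8 left-out fits, Fam171a2 in all 8 (edgeR adjusted p up to 0.169). Model stood at 15.1 ± 1.03 CPM for Ccdc85b, 55.2 ± 7.74 for Scarf2, 19.0 ± 0.732 for Eva1b and 17.4 ± 2.74 for Tamalin. It was at 3.38 ± 0.861 CPM for Fam171a2 and 1.40 ± 0.338 for Zbtb11os1. Gm20458 is a predicted gene. It measured 6.09, 5.91, 7.69 and 7.95 CPM in Control, and its HBG libraries held 0, 0, 0 and 4 counts. Model stood at 0.147 ± 0.107 CPM. Gm20458 shares 922 transcript bases with Dbndd2 and 459 with Sys1 (GENCODE M21), whose means were 33.6 ± 3.76 and 32.4 ± 3.497 CPM and 24.7 ± 1.95 and 20.9 ± 4.22 CPM.

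**Figure D2:**
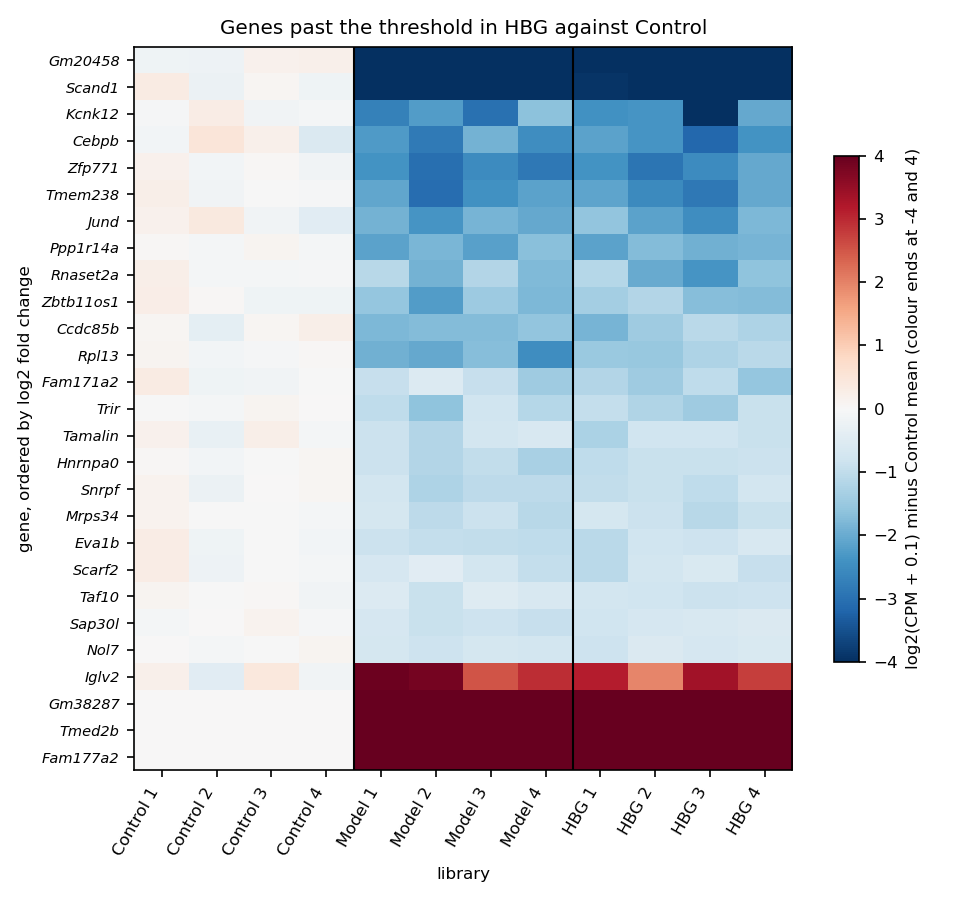
Rows are the 27 genes past the threshold, ordered by log2 fold change, columns the 12 libraries, and colour the log2(CPM + 0.1) minus the Control mean, with colours ending at -4 and 4. Control columns are near 0 throughout, and the HBG columns are blue for the 23 lower genes and red for the 4 higher ones; the Model columns are shown beside them.

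**Figure D3:**
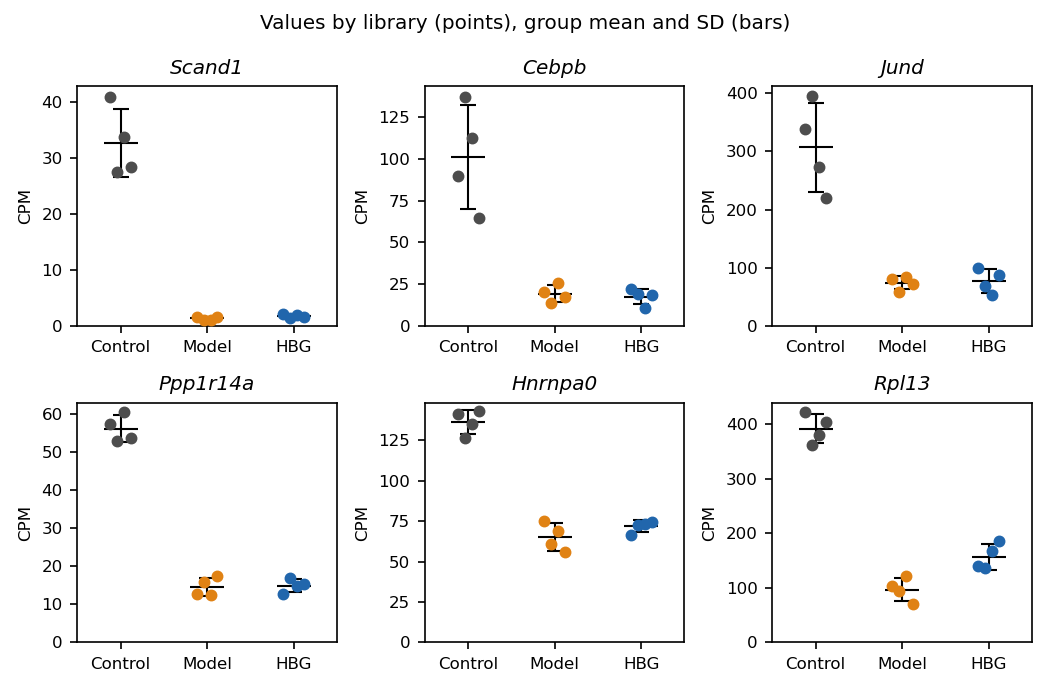
CPM of 6 lowered genes in the Control, Model and HBG groups, 4 libraries each; points are libraries, long bars the mean and whiskers the SD. In each panel all HBG points lie below all Control points, for example Hnrnpa0 at 66.7 to 74.7 CPM against 126 to 143 CPM.

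As a set, though not in every member, the lowered genes differed in base composition and length. Their transcripts had a median GC content of 61.6%, against 49.7% over all tested genes with a known sequence. Of the 23, 13 (56.5%) were over 60% GC, against 3.35% of tested genes. Among the 698 genes with HBG below all Control, the median was 51.2% and 16.1% were over 60% GC. Kcnk12 had 69.4% GC, Scand1 68.4%, Cebpb 67.2% and Jund 67.2%, while Snrpf with 41.4% and Nol7 with 43.3% were exceptions. The median length of the 23 was 1484 bases, against 2696, though Ccdc85b had 4715 and Taf10 4281. Of the 23, 4 (17.4%) had a single exon, against 7.44%. Exons of another gene lay on the opposite strand of 10 (43.5%), against 30.4%. Over all genes, the median log2 fold change was lowest in the most GC-rich transcripts. It was -0.83 in the 51 genes above 65% GC and -0.16 in the 534 genes between 60% and 65%, against 0.02 in the 4646 genes between 50% and 55%. The same medians for Model against Control were -0.83, -0.13 and 0.02. With GC content and length corrected, 16 of the 23 lower genes and all 4 higher ones still passed, among 31 calls. Lost were Kcnk12, Zbtb11os1, Fam171a2, Tamalin, Eva1b, Scarf2 and Sap30l. The correction smoothed over 0.3 of the genes at a time and may not follow the drop in the 51 genes above 65% GC. Passing after it therefore cannot show that a change is apart from GC content. The part of GC content in these differences was not otherwise tested, and the sources used here give no RNA integrity values.

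Each of the 4 higher genes has a near-identical copy or an overlapping partner. Fam177a2 (ENSMUSG00000094103) had 0 counts in all 4 Control libraries and 97.6, 126, 106 and 128 CPM in HBG, at least 794-fold higher than a floor of 3 counts per library (edgeR adjusted p = 3.19e-08). Its copy Fam177a, chosen after its values were seen, had 127, 141, 144 and 136 CPM in Control and 54.3, 5.79, 10.3 and 7.65 in HBG. Their sum was 137 ± 7.26 CPM in Control, 134 ± 14.5 CPM in HBG, while Model stood at 135 ± 12.9 CPM, so the totals of the pair differed by less than the spread between libraries. Fam177a2 took 91.2% to 95.6% of it in HBG 2, 3 and 4, and 64.3% in HBG 1. In Model, Fam177a2 stood at 127 ± 8.11 CPM. The Fam177a2 transcript of 3863 bases was 100% identical to Fam177a over its whole length, and the coding regions of 621 bases did not differ. The first 90 coding bases, from GENCODE M21, show that a read from this stretch fits both genes.
Fam177a2: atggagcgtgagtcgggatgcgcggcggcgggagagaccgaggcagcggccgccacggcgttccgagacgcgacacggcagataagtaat
Fam177a: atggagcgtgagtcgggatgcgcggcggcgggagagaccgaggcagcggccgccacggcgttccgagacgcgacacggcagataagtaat

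Tmed2b, which GENCODE M21 lists as a processed pseudogene, had 0 counts in all Control libraries and 15.3, 10.9, 13.7 and 16.3 CPM in HBG, at least 97.5-fold higher than the floor (edgeR adjusted p = 9.25e-06). All of its 604 bases match Tmed2, a gene of vesicle transport. The sum of both was 351 ± 15.8 CPM in Control and 303 ± 38.3 in HBG. In Model, Tmed2b stood at 18.1 ± 4.17 CPM. Gm38287 also had 0 counts in Control and 10.1, 10.2, 18.2 and 17.1 CPM in HBG, at least 96.5-fold higher than the floor (edgeR adjusted p = 0.000316). It lies on the opposite strand of Nrarp, a Notch pathway regulator, and 1494 bases of the transcripts match at 99.9%. Nrarp had 73.2, 71.6, 75.2 and 70.1 CPM in Control and 24.9, 50.2, 26.6 and 38.2 in HBG, all below Control (edgeR adjusted p = 0.214, DESeq2 adjusted p = 0.0115). The sum of the pair was 72.5 ± 2.17 and 48.9 ± 11.3 CPM. Model stood at 13.3 ± 4.59 CPM for Gm38287. The kit keeps strand, but the sources used here do not say whether the counting used it. Iglv2, a variable segment of the immunoglobulin lambda chain, had 0.216, 0.1001, 0.272 and 0.148 CPM in Control and 2.33, 0.973, 2.74 and 1.77 CPM in HBG (log2 fold change 3.35 ± 0.48, SE, edgeR adjusted p = 0.016). It is 97.0% identical to Iglv1 over 364 bases, and its call was lost without any 1 Control library or HBG 1 (edgeR adjusted p up to 0.0902).

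A lowered gene also has a near-identical copy. Rnaset2a, a lysosomal ribonuclease gene, had 81.4, 64.96, 65.7 and 66.4 CPM in Control and 31.4, 17.0, 13.4 and 22.6 CPM in HBG (log2 fold change -1.72 ± 0.26, SE, edgeR adjusted p = 0.0185). The call of Rnaset2a was lost without Control 1, Control 3, Control 4, HBG 2 or HBG 4 (edgeR adjusted p up to 0.0895). Its copy Rnaset2b, with the same 777 coding bases, had 140.0 ± 13.8 and 133 ± 8.60 CPM. The share of Rnaset2a in the pair was 30.0% to 35.1% in Control and 9.49% to 17.8% in HBG, and the sum was 210 ± 19.0 CPM in Control and 154 ± 16.04 in HBG. In Model, Rnaset2a stood at 25.4 ± 6.89 CPM. Beside Jund, the opposite-strand gene Gm11175 had 0.108, 0, 0 and 0 CPM in Control and 0, 4.06, 3.69 and 2.83 CPM in HBG. The sum of Jund and Gm11175 was still lower, at 79.6 ± 19.1 against 307 ± 76.2 CPM. Nnt, a mitochondrial transhydrogenase gene known to differ between C57BL/6 substrains, is listed under 2 identifiers. The one with identifier ENSMUSG00000116207 had 14.3, 21.2, 14.5 and 16.1 CPM in Control and 4.71, 12.5, 0 and 16.1 CPM in HBG, with HBG 3 at 0 counts. The other, ENSMUSG00000025453, had 7.65, 17.5, 12.4 and 10.4 CPM in Control and 21.5, 9.19, 24.9 and 13.9 CPM in HBG, with the groups overlapping. The strain label is the same for all groups and names no substrain.

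**Figure D4:**
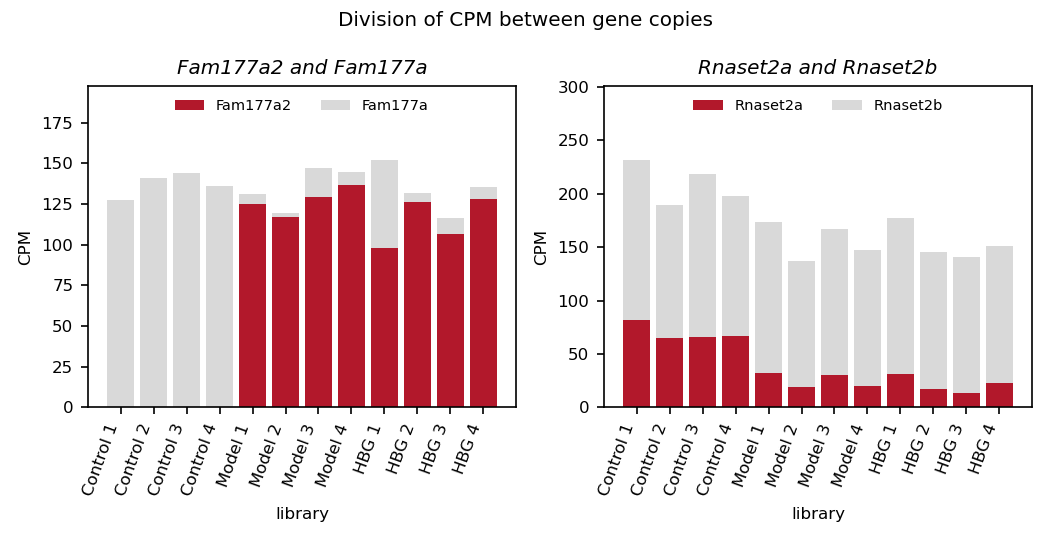
Stacked CPM per library of Fam177a2 over Fam177a (left) and Rnaset2a over Rnaset2b (right). The Fam177a2 share is 0 in the 4 Control libraries and 64.3% to 95.6% in HBG at nearly the same sum, and the Rnaset2a share is smaller in HBG than in Control.

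Beyond single genes, 46 lists of genes for lung cell types, matrix, inflammation, stress and other tissues were described by their members' counts and medians, to be read beside a median of 0.00604 and 8.25% of all genes at an unadjusted p under 0.05. Only Jund and Rpl13 of the 826 tested list genes passed. In bulk tissue, fewer cells of a type and less RNA per cell cannot be told apart. Each list was also scored per library, by averaging its members' log2 CPM after each gene was centred on the 12 libraries. For 2 lists the HBG scores lay above all Control scores without overlap, and for none below.

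**Figure D5:**
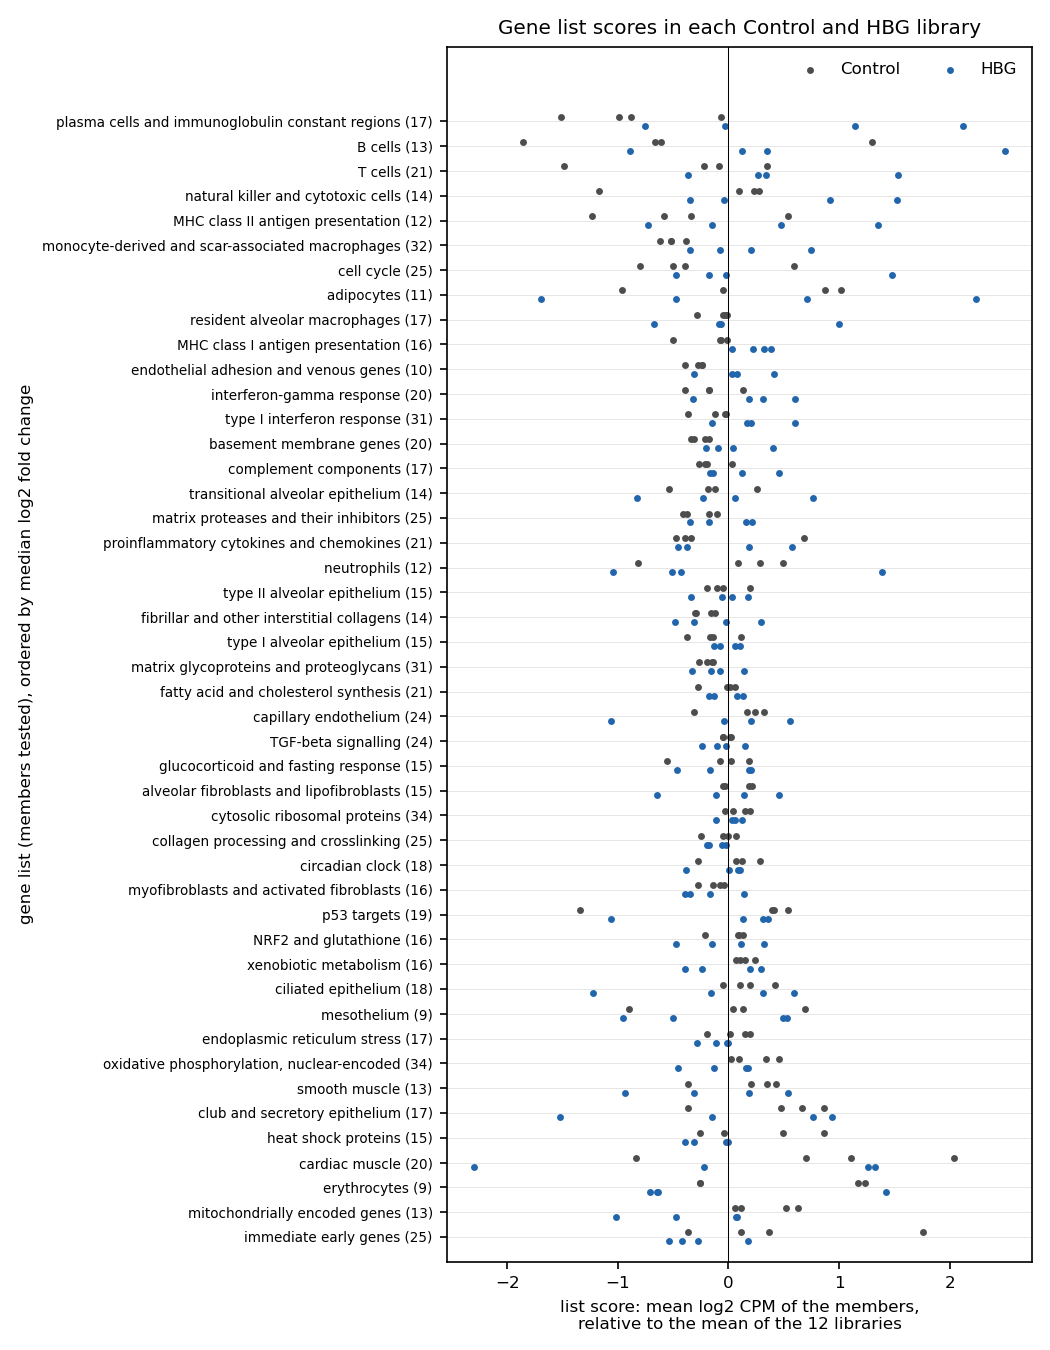
Scores (average centred log2 CPM) of the 46 gene lists in the 4 Control and 4 HBG libraries, ordered by median log2 fold change, with the number of tested members in brackets. Monocyte-derived macrophage and MHC class I scores are the only ones whose HBG points all lie to the right of the Control points; T cell, B cell and neutrophil scores are highest in 1 library, HBG 3.

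Collagen transcripts in HBG were near Control. Col1a1, a chain of type I collagen, had 229, 273, 263 and 221 CPM in Control and 298, 192, 311 and 174 CPM in HBG. HBG libraries lay on both sides of the Control range, and the log2 fold change was -0.02 ± 0.26 (SE, edgeR adjusted p = 0.991), with Model at 409 ± 159 CPM. Col3a1 was 411, 478, 411 and 424 CPM in Control and 489, 333, 726 and 309.9 in HBG, its highest value in HBG 3 (log2 fold change 0.11 ± 0.30, SE, edgeR adjusted p = 0.946). Of the 14 interstitial collagens 12 had a higher mean, with a median log2 fold change of 0.09, and none was at an unadjusted p under 0.05 or passed in edgeR, DESeq2 or limma-voom. Without HBG 3 only 6 of 14 were higher and the median was -0.09, and under limma-voom it was -0.17. Set beside Control, the median of Model was 0.59.

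Basement membrane genes, the sheet below epithelium and endothelium, were higher in mean for 18 of 20, with a median log2 fold change of 0.27 (Model 0.53). Without HBG 3 it was 0.16, with 16 of 20 higher, and under limma-voom 0.14. Lama3, a laminin chain of epithelial basement membrane, had 83.4, 62.5, 59.7 and 84.4 CPM in Control and 112, 119, 235 and 87.0 CPM in HBG, all above Control (log2 fold change 0.93 ± 0.28, SE, edgeR adjusted p = 0.394). Col4a3, a type IV chain of alveolar basement membrane, had 126 ± 32.8 and 222 ± 97.4 CPM, with HBG 4 within the Control range. None of this list passed in edgeR, DESeq2 or limma-voom, with 3 at an unadjusted p under 0.05.

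Among the other matrix genes, fibronectin and the protease inhibitor gene Timp3 lay mostly above Control, and neither passed in edgeR. Fn1, fibronectin, a scaffold for collagen, had 194, 205, 189 and 155 CPM in Control and 327, 283, 544 and 177 CPM in HBG. Only HBG 4 overlapped Control (log2 fold change 0.84 ± 0.37, SE, edgeR adjusted p = 0.592), and Model was at 585 ± 286 CPM. Over the 31 matrix glycoproteins and proteoglycans, 19 had a higher mean, with a median of 0.06 (Model 0.43). The direction rested on HBG 3, without which 11 were higher and the median was -0.05. Timp3, a matrix-bound inhibitor of metalloproteinases, was at 704, 621, 675 and 669 CPM in Control and 775, 992, 1009 and 894 CPM in HBG, without overlap. Its log2 fold change was 0.46 ± 0.11 (SE, edgeR adjusted p = 0.194), and it passed in DESeq2 (adjusted p = 0.00109) and limma-voom (adjusted p = 0.0221). Timp1, the soluble inhibitor that is induced in fibrosis, had 9.65, 10.2, 7.31 and 4.49 and 16.2, 6.16, 7.70 and 5.82 CPM, where only HBG 1 exceeded Control (log2 fold change 0.19 ± 0.59, SE, edgeR adjusted p = 0.955). The 25 proteases and inhibitors had 17 higher means and a median of 0.15 (Model 0.54), and of 0.025 (without HBG 3) to 0.24 (without HBG 4) with 1 library left out. Genes that process and crosslink collagen, such as Crtap, which serves prolyl hydroxylation (40.6 ± 4.88 and 33.0 ± 1.70 CPM), had 18 of 25 lower means and a median of -0.05, or -0.13 without Control 4. In these 3 lists 1, 4 and 1 members were at an unadjusted p under 0.05, and only Timp3 and Mmp12, the macrophage elastase gene, passed in DESeq2.

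Fibroblast and TGF-beta genes were likewise near Control. Acta2, the actin of smooth muscle and myofibroblasts, had 359, 679.8, 663 and 606 CPM in Control and 778, 376, 237 and 552 CPM in HBG, and Postn, periostin of activated fibroblasts, 370.0, 327, 379 and 383 and 178, 435, 505 and 358 CPM. In both, HBG libraries spread on either side of Control (edgeR adjusted p = 0.879 and 0.991). The myofibroblast list had 8 of 16 higher means and a median log2 fold change of -0.06 (Model 0.38), or -0.22 without HBG 1. Adam12, a protease of activated fibroblasts, had 2.42 ± 0.405 and 4.48 ± 3.26 CPM. Alveolar fibroblast genes had a median of 0.00136, and of -0.25 (without HBG 3) to 0.13 (without HBG 1) with 1 library left out. Tgfb1, the central profibrotic cytokine, had 61.4, 42.2, 57.2 and 54.2 CPM in Control and 40.8, 51.5, 75.3 and 36.4 in HBG (log2 fold change -0.08 ± 0.21, SE, edgeR adjusted p = 0.948). The 24 TGF-beta pathway genes had 12 higher and 12 lower means with a median of 0.01, and of -0.074 (without HBG 3) to 0.053 (without Control 3) with 1 library left out. Bambi, a decoy receptor of the pathway, had 33.8, 31.4, 31.2 and 28.0 CPM in Control and 15.3, 24.9, 19.4 and 25.8 CPM in HBG, all below Control (log2 fold change -0.55 ± 0.17, SE, edgeR adjusted p = 0.394). No member of these lists passed in edgeR, DESeq2 or limma-voom, and 4 pathway genes but no fibroblast gene had an unadjusted p under 0.05.

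The genes listed for monocyte-derived and scar-associated macrophages mostly had higher means. Of 32, 31 had a higher mean in HBG and 13 had an unadjusted p under 0.05, with a median log2 fold change of 0.66 (Model 0.71). None passed in edgeR or limma-voom, and 1, Mmp12, passed in DESeq2. Scores were -0.38, -0.62, -0.52 and -0.52 in Control and 0.75, -0.08, 0.20 and -0.35 in HBG, so HBG 4 was only just above the highest Control library. Without HBG 1 the median was 0.50 with 6 members at an unadjusted p under 0.05. Cd68, a lysosomal glycoprotein of macrophages, had 16.1, 14.6, 14.96 and 12.6 CPM in Control and 43.8, 23.03, 59.0 and 15.8 CPM in HBG, where HBG 4 fell within the Control range (log2 fold change 1.28 ± 0.44, SE, edgeR adjusted p = 0.479). Spp1, osteopontin of scar-associated macrophages, had 77.7, 43.9, 146 and 80.6 CPM in Control and 688, 246, 106 and 120.3 CPM in HBG, high in HBG 1 and HBG 2 (log2 fold change 1.74 ± 0.81, SE, edgeR adjusted p = 0.605). Cd163, a haemoglobin scavenger receptor, had 6.36, 8.46, 7.19 and 6.27 and 9.24, 13.3, 11.7 and 9.43 CPM, without overlap (edgeR adjusted p = 0.362).

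Resident alveolar macrophage genes had 14 of 17 higher means and a median of 0.48. That median was 0.24 without HBG 3. Itgax, the integrin CD11c, had 29.8, 19.1, 22.6 and 29.1 CPM in Control and 73.0, 36.2, 92.8 and 25.2 CPM in HBG, its lowest HBG value within Control. Complement genes had 15 of 17 higher means and a median of 0.26, or 0.09 without HBG 3 and 0.16 without HBG 1, and C3ar1, the receptor of the C3a fragment, 3.67 ± 0.930 and 8.56 ± 4.50 CPM. For neutrophil genes the direction rested on HBG 3: their median was 0.10 with all libraries and -1.05 without it, and it was -0.15 without Control 3. Cytokines and chemokines had higher means for 15 of 21, with a median of 0.12. Without Control 2 it was 0.38, with 19 of 21 higher, and under limma-voom -0.03. Ccl8, a monocyte chemokine, had 1.24, 2.35, 2.22 and 1.68 and 12.1, 3.73, 4.54 and 2.77 CPM, all HBG libraries above Control (edgeR adjusted p = 0.461). Il6 had 0.269, 6.71, 1.05 and 0.543 CPM in Control and 1.35, 0.757, 0.614 and 0.610 in HBG, and its Control mean rested on Control 2. None of these lists had a member that passed in edgeR, DESeq2 or limma-voom, with 1, 2, 1 and 2 members at an unadjusted p under 0.05 in the order given.

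With all libraries the list of antibody genes had the highest median of the 46, a rank that the B cell list took without HBG 1 (1.29 against 1.24). The 17 tested genes of plasma cells and immunoglobulin constant regions all had higher means, with a median log2 fold change of 1.36 (Model 1.15), and 10 were at an unadjusted p under 0.05. None passed in edgeR or limma-voom, and 5 passed in DESeq2 (Ighg1, Ighg2b, Ighg2c, Ighg3 and Iglc1). The median was 2.33 without Control 4. Ighg2b, the constant region of an IgG heavy chain, had 4.80, 1.25, 3.89 and 4.74 CPM in Control and 134, 13.0, 28.3 and 6.88 CPM in HBG, all above Control and highest in HBG 1 (log2 fold change 3.63 ± 0.92, SE, edgeR adjusted p = 0.23). Genes of the same pathway chosen after their values were seen had the same order of the HBG libraries, though not of the Control libraries. Igha, of the mucosal IgA class, had 1005, 167, 319.8 and 118 CPM in HBG against 90.4, 51.3, 80.7 and 106 CPM in Control, and Jchain, which joins IgA and IgM polymers, 357, 58.3, 96.4 and 39.0 against 25.2, 21.0, 24.8 and 32.7 CPM. In both, HBG 1 was highest and HBG 4 lowest within HBG.

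The 84 tested variable segments likewise all had higher means, with a median log2 fold change of 2.58 (Model 1.73), and 61 (72.6%) were at an unadjusted p under 0.05, where 8.25% of all genes were. The filter on low counts kept a gene expressed in any single group, and these segments were low in Control. Segments could thus enter through the groups where they were high, so their shared direction and this share were partly set in advance. Iglv2 alone passed in edgeR and in limma-voom, and 18 segments passed in DESeq2. Their summed level was 36.6, 27.2, 32.8 and 63.3 CPM in Control and 569, 87.5, 336 and 51.0 CPM in HBG. HBG 4 thus lay within the Control range and HBG 1 far above it. Without HBG 1 all 84 were still higher, with a median of 2.03 and 34 at an unadjusted p under 0.05. Variable segments share much sequence, so counts of single segments are uncertain.

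Lymphocyte genes had higher means too, unevenly across libraries. All 21 T cell genes had higher means (median log2 fold change 0.91, Model 0.48), as did all 14 natural killer genes (median 0.75, Model 0.16) and all 13 B cell genes (median 1.08, Model 0.65). No member of the 3 lists was at an unadjusted p under 0.05 or passed in edgeR, DESeq2 or limma-voom. Scores of the B cell list were -0.67, -1.85, -0.61 and 1.298 in Control and 0.35, 0.12, 2.502 and -0.89 in HBG, and HBG 3 and Control 4 were the highest of their groups. Without HBG 3 the medians were 0.29, 0.28 and -0.09, and only 5 of 13 B cell genes had a higher mean. Without Control 4 the B cell median was 2.16. Ms4a1, the B cell antigen CD20, had 4.04, 1.501, 4.24 and 14.4 CPM in Control and 10.4, 6.54, 62.9 and 4.82 CPM in HBG (edgeR adjusted p = 0.663). Zap70, a kinase of the T cell receptor, had 6.79 ± 1.45 and 9.28 ± 2.10 CPM, and Gzmk, a granzyme of cytotoxic cells, 0.398 ± 0.237 and 1.11 ± 0.507 CPM. Cell cycle genes had 24 of 25 higher means with a median of 0.56, and of -0.02 without HBG 3 and 0.99 without Control 4.

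Antigen presentation and interferon genes mostly had higher means in HBG, and none passed in edgeR. Of 16 MHC class I genes, 15 had a higher mean and 9 an unadjusted p under 0.05, with a median log2 fold change of 0.44 (Model 0.12). Scores were -0.06, -0.50, -0.08 and -0.01 in Control and 0.22, 0.32, 0.38 and 0.03 in HBG, without overlap, and the median was 0.37 without HBG 3 and 0.31 without Control 2. B2m, the light chain of class I molecules, had 824, 670.4, 978 and 956 CPM in Control and 1476, 1277, 1870.2 and 1066 CPM in HBG, all above Control (log2 fold change 0.73 ± 0.20, SE, edgeR adjusted p = 0.31, DESeq2 adjusted p = 0.0368). It was the only member that passed in DESeq2, and none passed in edgeR or limma-voom. MHC class II genes had 11 of 12 higher means and a median of 0.73, or 0.21 without HBG 3. Their invariant chain Cd74 had 665, 411, 547 and 932 CPM in Control and 1213, 704, 1846 and 598 CPM in HBG, with HBG 2 and HBG 4 within the Control range.

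Of 31 type I interferon response genes, 29 had a higher mean and 13 an unadjusted p under 0.05, with a median of 0.35 (Model 0.09). Irf7, the factor that amplifies interferon production, had 35.6, 29.9, 34.2 and 28.8 CPM in Control and 108, 55.7, 54.1 and 48.2 CPM in HBG, all above Control and highest in HBG 1 (log2 fold change 1.05 ± 0.23, SE, edgeR adjusted p = 0.154, DESeq2 adjusted p = 0.00327). Model had 33.5, 46.0, 37.0 and 47.5 CPM, and between HBG and Model Irf7 did not pass (edgeR adjusted p = 1.0, unadjusted p = 0.0105). The list median was 0.17 without HBG 1, with 6 members at an unadjusted p under 0.05. Interferon-gamma genes had 18 of 20 higher means, 5 at an unadjusted p under 0.05 and a median of 0.40 (Model -0.02). Without HBG 3, 12 of 20 were higher with a median of 0.20, and without Control 2 the median was 0.26. Cxcl9, a chemokine for activated T cells, had 0.539, 0.450, 0.389 and 0.494 CPM in Control and 8.72, 1.84, 2.65 and 1.11 CPM in HBG, without overlap (log2 fold change 2.93 ± 0.58, SE, edgeR adjusted p = 0.105, DESeq2 adjusted p = 0.000194). No member of either list passed in edgeR or limma-voom, while Irf7 and Cxcl9 passed in DESeq2. The class I, class II and interferon-gamma scores were highest in HBG 3, as were the T and B cell scores, and the part of those cells in these lists was not tested.

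Alveolar epithelial lists were near Control. Sftpc, surfactant protein C of type II cells, had 18928, 15059.7, 16461 and 13049.6 CPM in Control and 7736, 13968, 12859 and 15495 CPM in HBG, lowest in HBG 1 (log2 fold change -0.34 ± 0.22, SE, edgeR adjusted p = 0.707). Ager had 2361, 1514, 1947 and 1611 and 1543, 2093, 1660.1 and 1935 CPM, with the groups overlapping throughout. The medians were 0.09 over 15 type II genes and 0.06 over 15 type I genes. With 1 library left out they ran from -0.0038 (without HBG 3) to 0.17 (without Control 1) and from 0.0045 (without Control 2) to 0.16 (without Control 1). Nkx2-1, the master transcription factor of lung epithelium, had 266, 213, 241 and 212 CPM in Control and 139, 156, 114 and 174 CPM in HBG, all below Control (log2 fold change -0.68 ± 0.20, SE, edgeR adjusted p = 0.392). Krt8, a keratin of the transitional state between type II and type I cells, had 258, 378, 258 and 260.2 CPM in Control and 619.8, 249.6, 147 and 434 CPM in HBG, and its transitional list a median of 0.16, or -0.16 without HBG 1. Lgals3, galectin 3 of the same list, had 137, 160.3, 125 and 117 and 349, 143, 134 and 171 CPM. No member of these 3 lists passed in edgeR, DESeq2 or limma-voom, with 1, 1 and 0 at an unadjusted p under 0.05.

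Airway genes varied between libraries, and their list scores were lowest in HBG 3. Scgb1a1, the secretoglobin of club cells, had 45258, 43241, 61114 and 43254 CPM in Control and 17564, 32871, 18936 and 47764 CPM in HBG, with HBG 4 within Control (log2 fold change -0.72 ± 0.34, SE, edgeR adjusted p = 0.608), and Model at 26478 ± 7032 CPM. Club and secretory genes had 12 of 17 lower means with a median of -0.25, and ciliated genes 17 of 18 with a median of -0.14. Without HBG 3 these medians were 0.01 and 0.11. None passed in edgeR, DESeq2 or limma-voom, and none was at an unadjusted p under 0.05.

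In the vasculature, venous and adhesion genes had 8 of 10 higher means and a median of 0.41, or 0.20 without HBG 3. Selp, P-selectin, which captures leukocytes on activated endothelium, had 3.88, 4.204, 3.498 and 3.65 CPM in Control and 7.37, 4.76, 6.95 and 6.54 CPM in HBG, without overlap (log2 fold change 0.75 ± 0.18, SE, edgeR adjusted p = 0.191, DESeq2 adjusted p = 0.0109). Pecam1, a junction protein of all endothelium, had 581, 418, 589.6 and 637 CPM in Control and 269, 671, 969.6 and 557 CPM in HBG, with HBG 1 the lowest and HBG 3 the highest. Capillary genes had 13 higher and 11 lower means and a median of 0.04, or -0.29 without HBG 3 and 0.26 without HBG 1. Sox18, an endothelial transcription factor, had 112, 52.9, 138 and 114 CPM in Control and 33.3, 68.9, 43.6 and 64.99 in HBG (edgeR adjusted p = 0.38), and its transcript has 60.9% GC. In these vascular lists only Selp passed in DESeq2 and none in edgeR or limma-voom, with 1 and 3 members at an unadjusted p under 0.05.

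Immediate early and heat shock genes had lower means throughout. Many immediate early genes, though not all equally, are induced within minutes of a stimulus and also by tissue handling. All 25 genes of this list had lower means, with a median log2 fold change of -0.86 (Model -0.78). Of the 25, 9 were at an unadjusted p under 0.05. Jund alone passed in edgeR and limma-voom, and Jund and Klf2 in DESeq2. Scores were 0.11, 1.76, 0.37 and -0.37 in Control and 0.18, -0.27, -0.54 and -0.42 in HBG, and without Control 2 the median was -0.17, with 7 of 25 higher. Jund itself was lower without Control 2 as well (adjusted p at most 0.0187 in any left-out edgeR fit). Heat shock genes had lower means for all 15, with a median of -0.38, or -0.15 without Control 3, and 4 at an unadjusted p under 0.05. Hspb1, a small heat shock protein, had 98.7, 172, 173 and 67.5 CPM in Control and 58.7, 43.6, 20.4 and 59.2 CPM in HBG, all below Control (log2 fold change -1.49 ± 0.40, SE, edgeR adjusted p = 0.278, DESeq2 adjusted p = 0.0178).

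Other stress pathways had small medians, whose sign often rested on single libraries. Endoplasmic reticulum stress genes had a median of -0.15, or -0.23 without Control 4. Atf4, a transcription factor of this response, had 192, 201, 192 and 170.2 CPM in Control and 137, 147, 149 and 157 CPM in HBG, all below Control (edgeR adjusted p = 0.281, DESeq2 adjusted p = 0.0387). NRF2 genes had a median of -0.08, and of -0.21 (without HBG 1) to 0.075 (without HBG 3) with 1 library left out, and Slc7a11, a cystine transporter, 3.68 ± 0.514 and 7.23 ± 5.31 CPM. Cdkn1a, the p53 target p21, had 508, 579, 615 and 55.4 CPM in Control and 477, 568, 73.5 and 520.0 CPM in HBG, with 1 low library in each group. The p53 targets had a median of -0.07, which was -0.36 without Control 4 and 0.11, with 13 of 19 higher, without HBG 3. Fkbp5, a glucocorticoid-induced chaperone, had 24.8, 21.5, 23.6 and 22.5 and 29.4, 44.3, 24.2 and 45.6 CPM (edgeR adjusted p = 0.475, limma-voom adjusted p = 0.0296). Medians were 0.01 for glucocorticoid and fasting genes, -0.05 for clock genes, -0.12 for xenobiotic metabolism and 0.04 for lipid synthesis. With 1 library left out they ran from -0.089 (without Control 4) to 0.14 (without HBG 1), from -0.12 (without Control 4) to 0.038 (without HBG 3), from -0.22 (without HBG 4) to -0.035 (without HBG 3) and from -0.036 (without HBG 3) to 0.096 (without HBG 2), in that order. Beyond Atf4 in DESeq2 and Fkbp5 in limma-voom, no member of these lists passed in any of the 3 tools.

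Genes of mitochondrial respiration also had lower means throughout. All 34 nuclear-encoded oxidative phosphorylation genes had lower means, by a small median log2 fold change of -0.22 (Model -0.31), with 6 at an unadjusted p under 0.05. Cox5b, of cytochrome c oxidase, had 75.2, 115, 102 and 70.2 CPM in Control and 59.4, 39.3, 31.5 and 53.2 CPM in HBG, all below Control (log2 fold change -0.98 ± 0.22, SE, edgeR adjusted p = 0.154). It was the only member that passed in DESeq2 (adjusted p = 0.00365) and limma-voom (adjusted p = 0.0302), and none passed in edgeR. All 13 mitochondrially encoded genes had lower means too, with a median of -0.59 (Model -0.14) and summed levels of 46029 to 61197 CPM in Control and 25522 to 50554 CPM in HBG. Of these only mt-Atp8 passed in DESeq2 and none in edgeR or limma-voom, with 4 at an unadjusted p under 0.05. Without HBG 3 the medians were -0.12 and -0.42, and with GC content and length corrected -0.11 and -0.30.

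Genes of tissues next to the lung varied between libraries of both groups. Cardiac muscle genes, present in lung samples through the pulmonary veins and adjoining heart, had lower means for all 20 members (median -0.51, and -0.83 (without HBG 1) to -0.030 (without Control 2) with 1 library left out) and summed levels of 1041 to 6845 CPM in Control and 404 to 4148 CPM in HBG. Adipocyte genes summed to 121 to 393 and 87.6 to 773 CPM, with HBG 1 highest, and their median of 0.53 ran from -0.71 (without HBG 1) to 0.93 (without HBG 3) with 1 library left out. Red cell genes summed to 1632 to 4478 and 943 to 4533 CPM, and the 9 tested mesothelial genes to 98.9 to 199.98 and 104 to 231 CPM. For these 4 lists the group ranges overlapped, and the part of such tissue in the lists above was not tested. None of their members passed in edgeR, DESeq2 or limma-voom, and none was at an unadjusted p under 0.05.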

How the data were processed

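Polyadenylated RNA of lung was sequenced with a stranded kit as 150-base read pairs, per the labels' protocols. The submitters' processing notes name FastQC 0.11.9, Trimmomatic 0.39, STAR 2.7.9a, featureCounts 2.0.1 and DESeq2 1.34.0, and the builds GRCm39 and mm10, without saying which was used for what. The deposited table holds estimated counts for 56980 genes as the authors made them, not normalised, of which 10.0% to 15.1% per library were not whole. These were rounded, and 17827 genes passed the filter on low counts (filterByExpr). Genes were tested with edgeR 4.0.16 in R 4.3.3 (TMM factors, quasi-likelihood test, all 12 libraries sharing 1 estimate of spread) and Benjamini-Hochberg adjusted over all 17827. DESeq2 1.42.0, limma 3.58.1, other scalings and filters, a replicate block, a GC and length correction and leaving out libraries were alternatives. In counts simulated for 17595 genes, 49 of 100 changes of 2-fold and 87 of 99 of 4-fold were recovered, with 2 false calls. GC content, exons and identity came from GENCODE M21 (blastn 2.17.0), and the table's annotation is not known, so it gives no coordinates. Genes named were 18 key genes, up to 12 highest and 12 lowest called genes, and up to 3 called members of each list or its smallest p. The highest and lowest had no overlap between groups and a mean of at least 1 CPM in either group. Predicted genes, pseudogenes and immunoglobulin segments were left out of them, and Fam177a2 alone then remained among the higher genes. The comparison, lists and rules were chosen with earlier results of these data known.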

Additional observations from a re-analysis of the deposited data

Results flagged for a closer look

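In 18 of 258 sets of 4 libraries checked (6.98%), 1 library stood apart from the other 3 of its group by Dixon's ratio at its 95% critical value, where chance gives about 1 in 20. Control 2 was that library in 6 sets, Control 4, HBG 1 and HBG 3 in 3 each, Control 1, Control 3 and HBG 4 in 1 each, and HBG 2 in none.

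Among single genes, Krt8 in Control 2 was at 378 CPM, the other 3 libraries at 258 to 260.2. Scgb1a1 in Control 3 was at 61114 CPM, the other 3 libraries at 43241 to 45258, and Il6 in Control 2 at 6.71 CPM, the other 3 libraries at 0.269 to 1.05. Of the genes past the threshold, Kcnk12 in Control 2 was at 6.61 CPM, the other 3 libraries at 4.90 to 5.17, Rnaset2a in Control 1 at 81.4 CPM, the other 3 libraries at 64.96 to 66.4, and Gm20458 in HBG 4 at 0.222 CPM, the other 3 libraries at 0. The B cell gene Ms4a1 in HBG 3 was at 62.9 CPM, the other 3 libraries at 4.82 to 10.4. In HBG 1, Irf7 was at 108 CPM, the other 3 libraries at 48.2 to 55.7, Lgals3 at 349 CPM, the other 3 libraries at 134 to 171, and Cidea, a lipid droplet gene of fat, at 33.7 CPM, the other 3 libraries at 0.709 to 4.49.

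Among list scores (average centred log2 CPM), Control 2 stood at -1.17, the other 3 libraries at 0.0991 to 0.277, for natural killer genes. Control 2 was also apart for cytokines and chemokines, at 0.684, the other 3 libraries at -0.478 to -0.337, and for MHC class I genes, at -0.497, the other 3 libraries at -0.0761 to -0.0120. Control 4 was apart for resident alveolar macrophage genes, at -0.286, the other 3 libraries at -0.0489 to -0.0180, for p53 targets, at -1.34, the other 3 libraries at 0.392 to 0.540, and for NRF2 genes, at -0.214, the other 3 libraries at 0.0819 to 0.134. HBG 3 was apart for p53 targets, at -1.06, the other 3 libraries at 0.135 to 0.360, and for red cell genes, at 1.42, the other 3 libraries at -0.714 to -0.638.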

How the results depend on the processing

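Against 27 genes called, 4 higher and 23 lower, DESeq2 called 205 (49 higher, 156 lower) and limma-voom with quality weights 101 (9 higher, 92 lower). A minimum absolute log2 fold change of 1 left 18, 14 of them lower. Leaving out 1 library gave 16 to 25 calls, 3 to 5 higher and 13 to 21 lower. With replicate number as a block, 17 genes passed, 14 of them lower, and 17 with the block and the GC and length correction together, 14 lower. The labels do not tie same-numbered libraries to each other, and such Control and HBG libraries correlated at -0.36 to -0.10 (deviations from group means), none best with its own number. Of the genes followed through the alternatives, 18 changed sign in at least 1 alternative. None of them was called, and with all libraries their smallest edgeR adjusted p was 0.65. With 1 library left out, log2 fold changes ranged over -0.16 to 0.11 for Col1a1, -0.19 to 0.26 for Col3a1, -0.27 to 0.35 for Timp1, -0.33 to 0.056 for Tgfb1, -0.17 to 0.25 for Postn, -0.14 to 0.084 for Ager, -0.060 to 0.59 for Krt8, -0.16 to 0.40 for Pecam1, -1.73 to 0.38 for Il6, -0.49 to 0.25 for Cdkn1a, -0.44 to 1.99 for Cidea, -2.64 to 0.12 for Fos, -0.11 to 0.019 for Dbndd2, -0.093 to 0.77 for Klrd1, -0.87 to 0.066 for Myh6, -0.60 to 1.14 for Adipoq and -1.23 to 0.076 for Alas2. Other values of the opposite sign were, under limma-voom, -0.28 for Col3a1, -0.16 for Timp1, -0.020 for Postn, 0.0069 for Ager and 0.33 for Cdkn1a. With the GC and length correction they were 0.14 for Ager and 0.013 for Cdkn1a. With the replicate block the value was -0.058 for Postn, and with the block and that correction -0.067 for Col3a1, -0.065 for Postn, 0.15 for Ager and 0.071 for Cdkn1a. Without the filter on low counts the value was 0.014 for Col1a1, and without Control 4, Model 2 and HBG 3 together values were -0.21 for Col3a1, -0.15 for Postn, -0.092 for Pecam1 and -0.022 for Cebpg. The cause was not tested. Counts of 0 allow up to 0.110 to 0.167 CPM, so changes of genes below that level were not detectable at this depth.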
